A study of Mus musculus with 15 samples.

Results

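Radiation combined injury (RCI) is whole-body irradiation together with a burn, and the question here was whether vesicles from mesenchymal stem cells changed the immune transcripts of the spleen after it. All 547 endogenous genes of an nCounter immunology panel, of 561 on the panel, were compared between the 3 samples titled RCI with MSC-EVs and the 3 titled RCI, of 15 samples in the series. The RCI and RCI+MSC-EVs mice were both female C57BL/6J animals of 6 to 8 weeks that received a burn of 20% of the body surface and then 9 Gy from a cesium source. At 72 hours after injury the treated group was given MSC-EVs by the tail vein, prepared by differential centrifugation from cultured bone marrow mesenchymal stem cells of the same strain, and the RCI group was given PBS according to the labels (saline in the study's text). Spleens were taken 48 hours later, made into cell suspensions, and red blood cells were lysed before RNA was extracted. Uninjured mice (Sham) and mice given 9 Gy without a burn (WBIR), with or without MSC-EVs, are used for reference. The samples were said to be run in triplicate, and the labels do not settle whether the 3 samples of a group are 3 mice, so the p-values measure the spread between these samples, which may be technical in part.

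Lymphocytes are among the most radiosensitive cells of the body, and a spleen a few days after a high dose has lost most of its B and T cells while macrophages, endothelium and stroma persist. A burn adds an acute phase response, in which interleukin-1, interleukin-6 and TNF drive the synthesis of complement and other plasma proteins. Extracellular vesicles of mesenchymal stem cells carry proteins and RNA of the parent cell and are known for damping inflammatory signaling in macrophages. Because the RNA is of a mixed cell suspension, fewer cells of a type and less RNA per cell cannot be told apart, and how much endothelium and stroma each suspension held was not tested.

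The kinase gene *Map4k1*, the chemokine receptor gene *Cxcr4* and most T cell genes of the panel, such as *Cd3e* and *Il7r*, had higher levels in RCI+MSC-EVs than in RCI, and the complement gene *C4a*, the macrophage growth factor gene *Csf1* and 5 of 12 endothelial and stromal genes, among them *Cdh5*, *Cd34* and *Cxcl12*, had lower levels without overlap. Over all tested genes 4.23% were lower without overlap, and other endothelial and stromal genes, such as *Pecam1* and *Thy1*, had values above 0. These differences were mostly under 2-fold, and no gene passed the adjusted threshold. Much of the lower side rested on a single library, RCI 3, in which inflammatory genes were far above the other RCI samples.

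Counts were scaled to the geometric mean of the panel's 14 reference genes, and edgeR was run on the 426 of the 547 genes whose counts averaged 20 or more across the whole series of 15 samples. None of the 426 passed an adjusted p of 0.05 (0 genes, 0%), the lowest adjusted p being 0.848. DESeq2 and limma also called 0. At an unadjusted p under 0.05 edgeR gave 14 genes (3.29%), DESeq2 15 and limma 10. Of the 14, 5 were higher in RCI+MSC-EVs (1.17%), namely *Map4k1*, *Cxcr4*, *Camp*, *Cd3e* and *Socs1*. The other 9 were lower (2.11%), namely *C4a*, *Csf1*, *Cfb*, *C3*, *Ccl2*, *Serping1*, *Cdh5*, *Cxcl13* and *Cd34*. The 3 samples of each group did not overlap in 28 genes that were higher in RCI+MSC-EVs (6.57%) and in 18 that were lower (4.23%). Groups of 3 samples also separate in some genes by sampling alone, so a lack of overlap is a description and was not tested. The 121 genes left out by the filter had few counts, with a median of 10.2 per gene over the 6 libraries, and among them the groups did not overlap in 8 higher and 4 lower.

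Total counts of the 6 libraries ranged from 294960 to 484525. The median SE of a log2 fold change (log2FC) was 0.33, and for 210 of the 426 genes (49.3%) the 95% interval of the log2FC lay within -1 and 1, so a change of over 2-fold was outside the interval for those genes and inside it for the others. Relative to the reference genes the tested genes had a median log2FC of 0.12, and TMM scaling shifted it by -0.14 to -0.02. The genes at an unadjusted p under 0.05 divided into 3 higher and 19 lower with TMM, into 2 and 22 when scaled by median of ratios, and into 6 and 6 with 7 of the 14 reference genes.

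*Map4k1* encodes HPK1, a kinase of blood cells that restrains signaling from T and B cell receptors. It measured 102, 101 and 89.4 scaled counts in RCI+MSC-EVs 1 to 3 and 58.3, 67.1 and 52.4 in RCI 1 to 3. Every treated sample was above every RCI sample, and all 6 were far under Sham (690 ± 136, SD, n = 3). The log2FC was 0.72 ± 0.21 (SE), with a 95% interval from 0.28 to 1.16 and an edgeR p of 0.00342 (adjusted p 0.848, from 0.289 to 0.999 over the alternatives).

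*Cxcr4* encodes the receptor for Cxcl12 that retains lymphocytes and progenitors in marrow and spleen. Its scaled counts were 164, 252 and 306 in RCI+MSC-EVs and 103, 165 and 144 in RCI. RCI+MSC-EVs 1 lay just under RCI 2, so the groups overlapped by that pair, and Sham stood at 2812 ± 500. The log2FC was 0.81 ± 0.26 (edgeR p 0.00797, adjusted p 0.848), and 0.65 with TMM scaling (edgeR p 0.0525).

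*Socs1*, a feedback inhibitor of JAK kinases, was at 357, 436 and 400 scaled counts in RCI+MSC-EVs and at 274, 275 and 303 in RCI. The groups did not overlap, and both lay above Sham (183 ± 49.3), unlike the lymphocyte genes. The log2FC was 0.48 ± 0.21 (edgeR p 0.0384, adjusted p 0.989), and with TMM scaling it was 0.32 ± 0.19 (edgeR p 0.121, adjusted p 0.931). Of the 17 tested genes of the JAK-STAT list, *Cish*, *Stat6* and *Ptpn2* were the others with no overlap, all higher, where 6.57% of all genes were. *Cish*, also a feedback gene of this pathway, had a log2FC of 0.54 ± 0.30, while those of *Stat6* (0.16) and *Ptpn2* (0.18) were close to the median gene and came to 0.01 and 0.04 with TMM scaling.

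The T cell list held 19 tested genes, of which 18 had a log2FC above 0, with a median of 0.43 beside 0.12 for all 426 genes (0.31 beside -0.02 with TMM scaling). Adjusted calls were 0, 1 of the 19 passed the unadjusted threshold (3.29% of all genes did), and 4, *Cd3e*, *Ets1*, *Il7r* and *Tcf7*, were higher with no overlap between the groups (6.57% of all genes were). *Cd3e*, a subunit of the T cell receptor complex, measured 519, 602 and 464 scaled counts in RCI+MSC-EVs against 418, 367 and 288 in RCI. Its log2FC was 0.56 ± 0.23 (edgeR p 0.0256, adjusted p 0.989), and both groups were below Sham (1399 ± 319). Without RCI 3 the log2FC of *Cd3e* was 0.43 ± 0.23 (edgeR p 0.0847, adjusted p 0.998). The genes of the CD8 coreceptor had the largest log2FC of the list, 0.72 ± 0.40 for *Cd8b1* and 0.65 ± 0.41 for *Cd8a*, but their groups overlapped. Added over the 19 genes, the scaled counts came to 7424, 8934 and 6871 in RCI+MSC-EVs and to 6306, 6714 and 4117 in RCI. The lowest treated sample was thus only slightly above the highest RCI sample, and Sham ranged from 23626 to 46685.

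**Figure D1:**
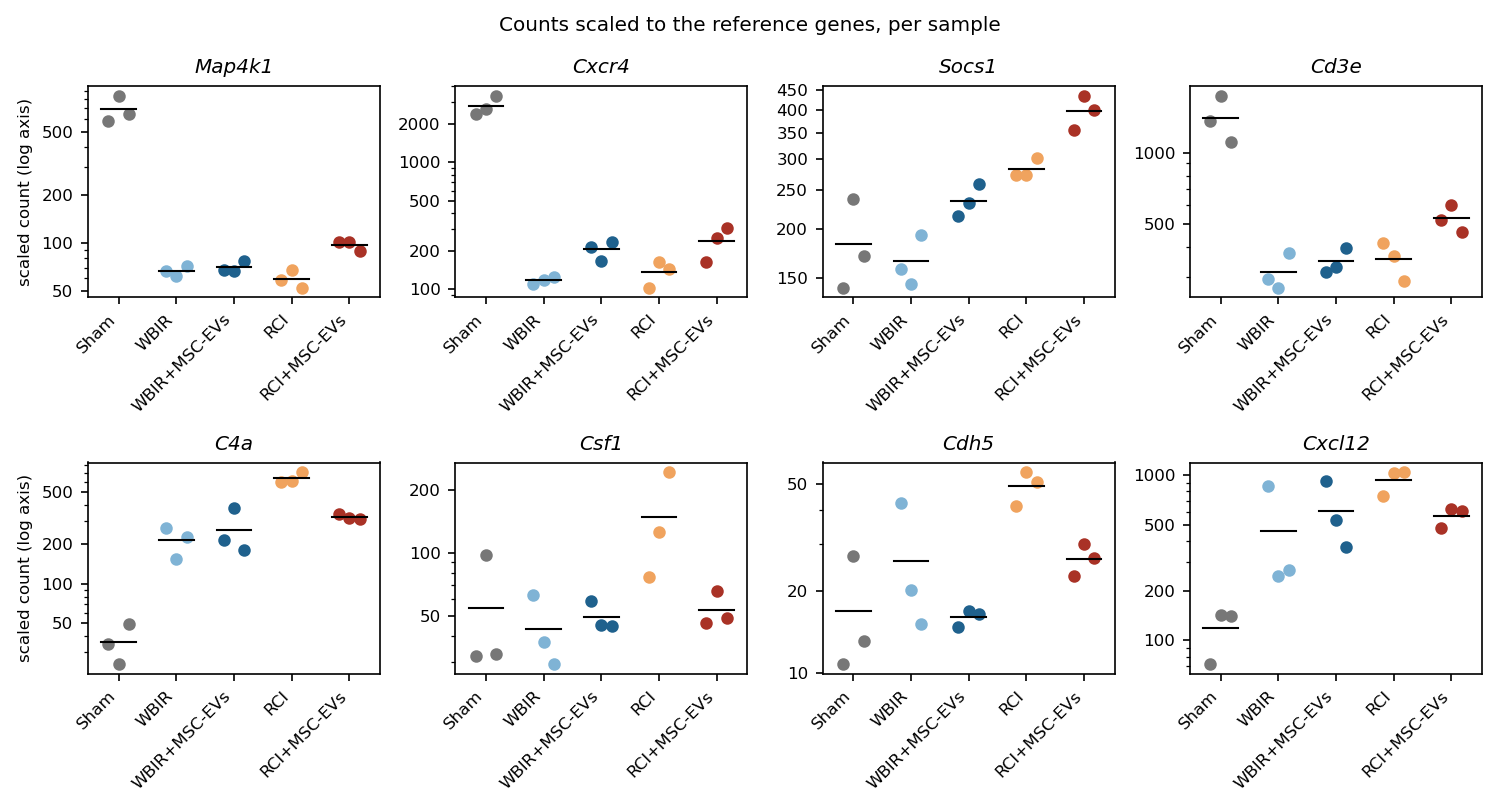
Counts scaled to the reference genes (log axis) of 8 genes in the 5 groups, with a point for each of the 3 samples and a line at the mean. For *Map4k1*, *Socs1* and *Cd3e* all 3 RCI+MSC-EVs samples sit above the 3 RCI samples, for *C4a*, *Csf1*, *Cdh5* and *Cxcl12* all 3 sit below, and for *Cxcr4* the groups overlap.

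None of the 13 B cell genes had groups apart, where 6.57% of all genes were higher and 4.23% lower without overlap. The B cell median log2FC was 0.32 (0.11 without RCI 3). Added over these genes, the scaled counts came to 1850, 2346 and 2691 in RCI+MSC-EVs and to 2130, 2108 and 1649 in RCI, so the groups overlapped, far under the 18877 to 21590 of Sham. The 12 NK and cytotoxic genes had a median of 0.08 and the 11 macrophage and scavenger receptor genes a median of 0.03. Either list had 0 genes at an unadjusted edgeR p under 0.05, where 3.29% of all genes were.

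The 7 tested neutrophil genes had a median log2FC of 0.56, the highest of the cell type lists (0.46 with TMM scaling and 0.43 without RCI 3), with 5 members above 0. *S100a8* and *S100a9*, which together encode calprotectin, had 985, 1977 and 1762 and then 740, 1533 and 1623 scaled counts in RCI+MSC-EVs. In RCI they had 838, 917 and 576 for *S100a8* and 798, 717 and 409 for *S100a9*. Only *S100a8* had groups apart, and RCI+MSC-EVs 1 was close to the RCI samples for both genes. The log2FC were 1.02 ± 0.66 (edgeR p 0.146, adjusted p 0.989) and 1.02 ± 0.72 (edgeR p 0.180, adjusted p 0.989). *Camp*, the cathelicidin gene of maturing neutrophils, had the largest log2FC of all genes, 2.37 ± 0.88 (edgeR p 0.0176, adjusted p 0.939). It rested on RCI+MSC-EVs 3 with 92 raw counts, where the other 5 libraries had 7 to 12, and without that library the log2FC was 0.49.

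On the lower side, *C4a* was the gene with the most separate groups. It encodes a form of complement C4, is near-identical to *C4b*, and cross-hybridization between the pair was not tested. Scaled counts were 340, 321 and 313 in RCI+MSC-EVs and 599.1, 609 and 712 in RCI, so the treated samples lay close together, between WBIR (217 ± 57.6) and RCI (640 ± 62.4). The log2FC was -0.98 ± 0.29, with a 95% interval from -1.61 to -0.35 (edgeR p 0.00507, adjusted p 0.848).

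*C3*, the central complement protein, *Cfb*, its partner in the alternative pathway, and *Serping1*, the C1 inhibitor, also passed the unadjusted threshold. The log2FC of *Serping1* was -1.17 ± 0.50 (edgeR p 0.0343, adjusted p 0.989), and -0.62 ± 0.50 without RCI 3 (edgeR p 0.237, adjusted p 0.998). For *Cfb* the RCI+MSC-EVs samples had 145, 132 and 176 scaled counts and the RCI samples 171, 171 and 1052. For *C3* the values were 300, 322 and 520 against 486, 588 and 1871. In both genes the third RCI sample was several-fold above the first 2, which lay at or near the treated samples. Of the 17 tested complement genes 9 had a log2FC below 0, with a median of -0.07. *C1s*, a protease of the classical pathway, also had groups apart and was lower, as *C4a* and *Serping1* were (4.23% of all genes were lower and apart). The 15 tested acute phase genes, which include *C3*, *C4a*, *Cfb*, *C1s* and *Serping1* too, had a median of -0.68, with 13 below 0. Of the 15, 7 were over 2-fold high in RCI 3, where 34 of all 426 genes were. Without RCI 3 the median was -0.18.

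*Csf1* encodes the growth factor that maintains macrophages. It had 46.2, 65.5 and 49.0 scaled counts in RCI+MSC-EVs and 76.2, 126 and 242 in RCI. The treated samples were within the range of Sham (54.4 ± 37.7) and the RCI samples were spread widely above them. Its log2FC was -1.47 ± 0.48 (edgeR p 0.00810, adjusted p 0.848) and without RCI 3 it was -0.91 ± 0.46 (edgeR p 0.0694, adjusted p 0.998).

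The endothelial and stromal list had 12 tested genes and a median log2FC of -0.23 beside 0.12 for all genes, with 5 members lower and 1 higher without overlap, where 4.23% and 6.57% of all genes were. Its members went both ways, 7 below 0 and 5 above, and their summed scaled counts overlapped (5902 to 8239 in RCI+MSC-EVs and 4335 to 8270 in RCI). *Cdh5*, the cadherin of endothelial junctions, measured 22.7, 29.9 and 26.6 scaled counts in RCI+MSC-EVs and 41.3, 55.1 and 50.7 in RCI. RCI 3 was between the other RCI samples here, and the log2FC of -0.89 ± 0.39 (edgeR p 0.0375, adjusted p 0.989) was -0.87 without it. *Cd34*, a sialomucin of endothelium and progenitors, was at 21.0, 19.5 and 26.6 against 49.3, 34.8 and 75.1.

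Chemokines made by the stroma were lower as well. *Cxcl12*, the ligand of Cxcr4, had 478, 625 and 602 scaled counts in RCI+MSC-EVs and 750, 1028 and 1043 in RCI, with no overlap and a log2FC of -0.73 ± 0.45 (edgeR p 0.130, adjusted p 0.989). *Ccl19*, the T zone ligand of Ccr7, had 36.1, 48.3 and 51.1 against 87.0, 69.5 and 128. *Cxcl13*, which draws B cells to follicles, had 67.2, 83.9 and 61.7 against 106, 85.1 and 386. Its log2FC was -1.45 ± 0.66 (edgeR p 0.0466, adjusted p 0.989), and -0.43 ± 0.61 without RCI 3 (edgeR p 0.493, adjusted p 0.998). In all of these chemokines the treated samples lay below the RCI samples, in *Cxcl13* by a narrow margin between RCI+MSC-EVs 2 and RCI 2. In the list of 13 lymphoid chemokines and homing receptors these 3 chemokines and the receptor gene *Ccr6* (-0.22) were below 0, and 9 genes were above. *Ccr9*, a gut-homing receptor of lymphocytes, had 41.2, 49.4 and 49.0 scaled counts in RCI+MSC-EVs and 27.8, 34.8 and 26.8 in RCI (log2FC 0.65 ± 0.30, edgeR p 0.0520, adjusted p 0.989), and *Ccr7* and *Itga4* were also higher without overlap. Of these 13 genes 3 were higher and 3 lower without overlap, where 6.57% and 4.23% of all genes were. *Pecam1* and *Icam2*, which are endothelial genes too, had log2FC of 0.21 and 0.11, and *Thy1*, which T cells share with stroma, was the higher member of the endothelial and stromal list without overlap (0.59).

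**Figure D2:**
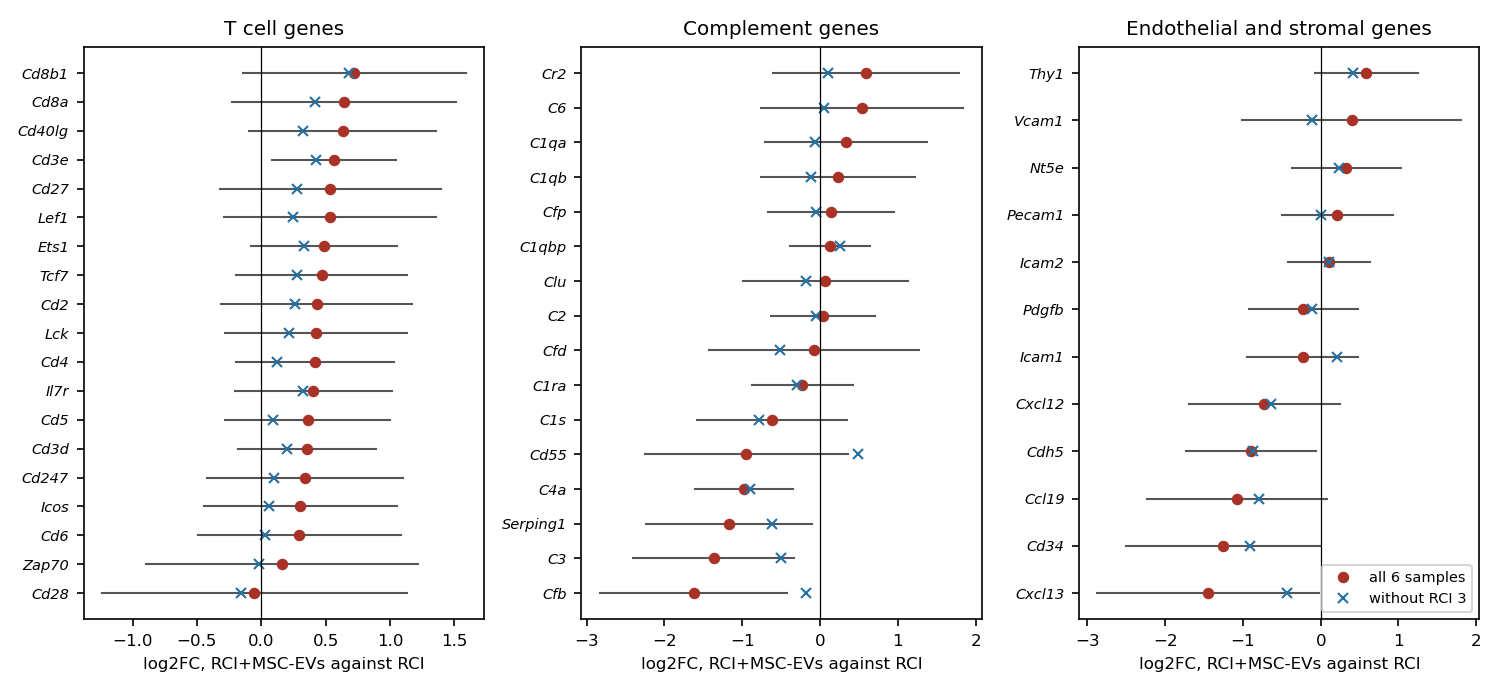
Log2FC of RCI+MSC-EVs against RCI for tested members of 3 gene lists (1 complement gene is not drawn), with red points for all 6 samples, bars for their unadjusted 95% interval, and blue crosses for the fit without RCI 3. Of the T cell genes 18 of 19 lie above 0, most intervals cross 0, and among complement genes *Cfb*, *C3* and *Cd55* move most when RCI 3 is left out.

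RCI 3 stood apart from RCI 1 and RCI 2. Against their mean, 34 of the 426 tested genes were over 2-fold higher in RCI 3 and 82 over 2-fold lower (54 and 40 with TMM scaling). In the treated group 4, 7 and 14 genes of RCI+MSC-EVs 1, 2 and 3 were that far from the mean of the other 2 samples. By the same measure, either direction, RCI 3 had 116 genes, RCI 1 had 41 and RCI 2 had 36. Outside these groups Sham 2 had 147, above RCI 3, WBIR+MSC-EVs 1 had 79, Sham 1 had 62, Sham 3 had 49 and WBIR 1 had 43. The remaining WBIR and WBIR+MSC-EVs libraries had 5 to 24. The genes nearest to the limit were *Icam1* (1.04) just inside and *Il1r1* (0.98) just outside on the high side, on the log2 scale. The reference genes of RCI 3 differed too, from -0.91 for *Polr2a* to 0.98 for *Alas1* relative to RCI 1 and RCI 2.

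The genes high in RCI 3, 34 of all 426, included 4 of the 18 interleukin-1 and interleukin-6 family genes and 6 of the 18 NF-kB genes. They also included 4 of the 9 monocyte and inflammatory chemokine genes, of which 2 others were over 2-fold low. Summed over these 9 genes, scaled counts were lowest in RCI 3 among the RCI samples (2608 beside 4745 and 6656). *Il1b*, the main secreted interleukin-1, had 74.4, 77.9 and 925 scaled counts in RCI 1 to 3 and 104, 116 and 202 in RCI+MSC-EVs 1 to 3. *Tnf* had 43.1, 47.9 and 241 in RCI and 57.1, 65.5 and 87.3 in RCI+MSC-EVs. *Ccl2*, the monocyte chemoattractant MCP-1, had 27.8, 45.6 and 322 against 30.2, 12.6 and 47.9. In each of these genes RCI 3 was over 2-fold above every other sample. For *Ccl2* RCI+MSC-EVs 2 was also low, and without that library the log2FC was -1.77. *Il1rn*, *Il1a*, *Irak3*, *Tnfaip3*, *Marco* and *Ccl3* completed the 8 highest with *Il1b* and *Ccl2*, from 2.77 to 3.59 above RCI 1 and RCI 2 on the log2 scale. *Tnfaip3* encodes A20, an inhibitor of NF-kB, and *Marco* a scavenger receptor of marginal zone macrophages, which reached 27539 scaled counts in RCI 3 beside 3187 and 4666.

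The lowest genes in RCI 3 included markers of resident macrophages and of antigen presentation. *Ccl24*, an eosinophil chemokine, had 3210, 4659 and 166 scaled counts in RCI 1 to 3 and 3049, 4313 and 1792 in RCI+MSC-EVs. *Cd163*, the hemoglobin scavenger receptor, had 737, 998 and 93.2 against 1025, 1048 and 549, and RCI 3 was likewise the lowest of the 6 samples for *Vcam1* and *Ccr3*. Of the 9 tested MHC class II genes 6 were over 2-fold low in RCI 3. So were 6 of 11 macrophage genes and 8 of 17 interferon-inducible genes, where 82 of all 426 genes were. With TMM scaling 40 of all genes were that low, and list members were not counted under that scaling. Summed over the 11 macrophage genes, *Marco* included, scaled counts were highest in RCI 3 among the RCI samples (33915 beside 14388 and 16281). For all 4 of the lowest genes RCI+MSC-EVs 3 was the lowest treated sample, though well above RCI 3. In the 34 genes high in RCI 3, RCI+MSC-EVs 3 was above the mean of RCI+MSC-EVs 1 and 2 in 26 (147 of all 426 genes). The median log2 difference was 0.66, beside -0.13 for all genes. In the 82 low genes RCI+MSC-EVs 3 was below in 66 (279 of all genes, median -0.34). Some libraries of other groups, set against their own group in the same way, were above in most of the 34 genes too. Sham 2 was above in 28 (327 of all genes, median 0.77 beside 0.56 for all genes). WBIR 1 was above in 25 (216 of all genes, 0.27 beside 0.01) and WBIR 3 in 24 (258 of all genes). Of the 82 genes WBIR 1 was below in 56 (210 of all genes), WBIR+MSC-EVs 1 in 55 (197) and Sham 2 in 31 (99). Genes of 1 library are not independent of each other. What set RCI 3 apart was not tested.

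**Figure D3:**
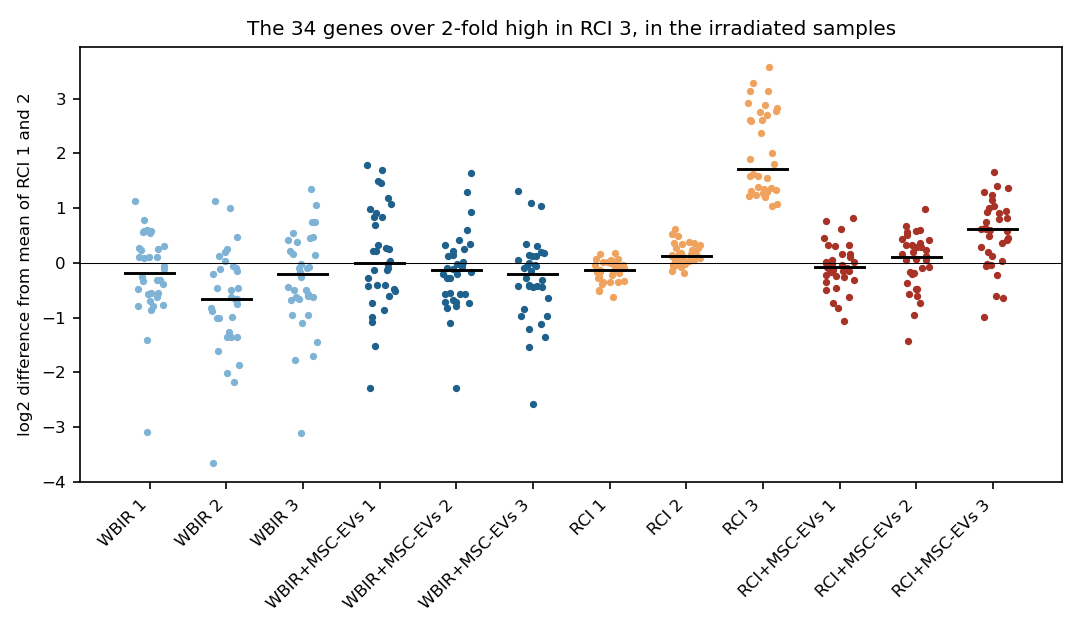
The 34 genes over 2-fold high in RCI 3, in the 12 irradiated samples, as log2 difference of the scaled count from the mean of RCI 1 and RCI 2, with a point for each gene and a line at the median. The genes were chosen on RCI 3, RCI 1 and RCI 2, so those 3 columns are a description. RCI+MSC-EVs 3 lies above RCI+MSC-EVs 1 and 2.

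Because these genes moved together in 1 library, their promoters were searched for the NF-kB consensus motif (both strands, overlapping matches allowed) in the windows of RefSeq from 250 bases before to 50 after the first listed start (GRCm38.p6). A window was listed for 28 of the 34 high genes, and 8 of the 28 held a match (28.6%), beside 8.77% of 57 low genes, 12.2% of 320 tested genes and 8.18% of all 27025 genes with a window. Shown first are the 250 bases before the start of *Tnfaip3* (chr10:19015411-19015660, minus strand), with both matches in capitals, and then the surroundings of a match in the others, again with the motif in capitals. They are *Nfkb2* (chr19:46304690-46304715, plus), *Ccl9* (chr11:83578654-83578679, minus), *Nfkbia* (chr12:55492659-55492684, minus), *Csf3r* (chr4:126024522-126024547, plus), *Csf1* (chr3:107760606-107760631, minus), *Tlr2* (chr3:83841764-83841789, minus) and *Cxcl10* (chr5:92349031-92349056, minus), each along the strand of its gene.
Tnfaip3: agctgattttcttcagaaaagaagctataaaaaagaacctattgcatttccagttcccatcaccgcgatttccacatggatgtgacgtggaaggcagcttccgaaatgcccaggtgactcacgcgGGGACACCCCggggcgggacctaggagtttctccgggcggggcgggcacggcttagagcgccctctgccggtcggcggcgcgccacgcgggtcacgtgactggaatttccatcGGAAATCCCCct
Nfkb2: atcgtcacGGGAATTCCCcccctcgg
Ccl9: tgaactttGGAAAGCCCCaagtcacc
Nfkbia: actggcttGGAAATTCCCcgcgcctg
Csf3r: ctgaggcaGGAAGGTCCCtagctcac
Csf1: gccttgagGGAAAGTCCCtaggggcc
Tlr2: ggacacctGGGGAATTCCcacacgga
Cxcl10: aggggagaGGGAAATTCCaagttcat
A match is a description of these letters in the window. The 34 genes were chosen for being high in RCI 3, and 6 of them belong to the NF-kB list. Whether NF-kB acted on them in RCI 3 was not tested.

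Without RCI 3 edgeR called 0 of 426 genes (0%), with a smallest adjusted p of 0.998, and DESeq2 and limma called 0. An unadjusted p under 0.05 was reached by 5 genes in edgeR (1.17%), *Cxcr4*, *Map4k1* and *Socs1* higher and *C4a* and *Cxcl9* lower, and 4 of these, all but *Cxcl9*, were among the 14 with RCI 3. *Map4k1* then had a log2FC of 0.64 ± 0.22 (edgeR p 0.0134), *Cxcr4* 0.84 ± 0.29 (edgeR p 0.0127), *Socs1* 0.53 ± 0.23 (edgeR p 0.0388) and *C4a* -0.90 ± 0.32 (edgeR p 0.0143), each with an adjusted p of 0.998. *Cxcl9*, an interferon-gamma-inducible chemokine, had 108, 69.0 and 95.8 scaled counts in RCI+MSC-EVs and 214, 108 and 44.8 in RCI. Its log2FC was -0.42 ± 0.45 with RCI 3, the lowest of the 6 samples, and -0.83 ± 0.37 without it (edgeR p 0.0415, adjusted p 0.998). Groups of 3 and 2 samples did not overlap in 40 genes that were higher (9.39%) and 40 that were lower (9.39%). Groups of 3 and 2 separate by sampling alone more often than groups of 3 and 3, so these shares cannot be compared with those of all 6 samples.

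Leaving out RCI 3 changed the balance of the comparison. With it 298 log2FC were above 0 and 128 below, and without it 212 and 214, and the sign changed for 170 genes. The median of all tested genes went from 0.12 to -0.00. With RCI 3 a log2FC below -1 was found in 17 genes, and without it all 17 lay within -1 and 1. The 34 genes high in RCI 3, for which the choice favors a negative value with RCI 3 and a positive one without it, had medians of -0.80 and 0.28. For the 82 genes low in RCI 3 the choice favors the opposite signs, and their medians were 0.27 and -0.10. *Tnfaip3* went from -0.77 ± 0.64 to 0.89 ± 0.41 (edgeR p 0.0512, adjusted p 0.998), with 127, 143 and 364 scaled counts in RCI+MSC-EVs and 105 and 124 in RCI 1 and RCI 2. *Tnf* went from -0.68 ± 0.59 to 0.62 ± 0.45 (edgeR p 0.195, adjusted p 0.998), and *Ccl2* from -2.13 ± 0.76 to -0.26 ± 0.53 (edgeR p 0.628, adjusted p 0.998). These are 2 of the 3 genes whose plasma proteins the study assayed. The third, *Il2*, had 3 to 11 raw counts in these libraries and was not tested.

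**Figure D4:**
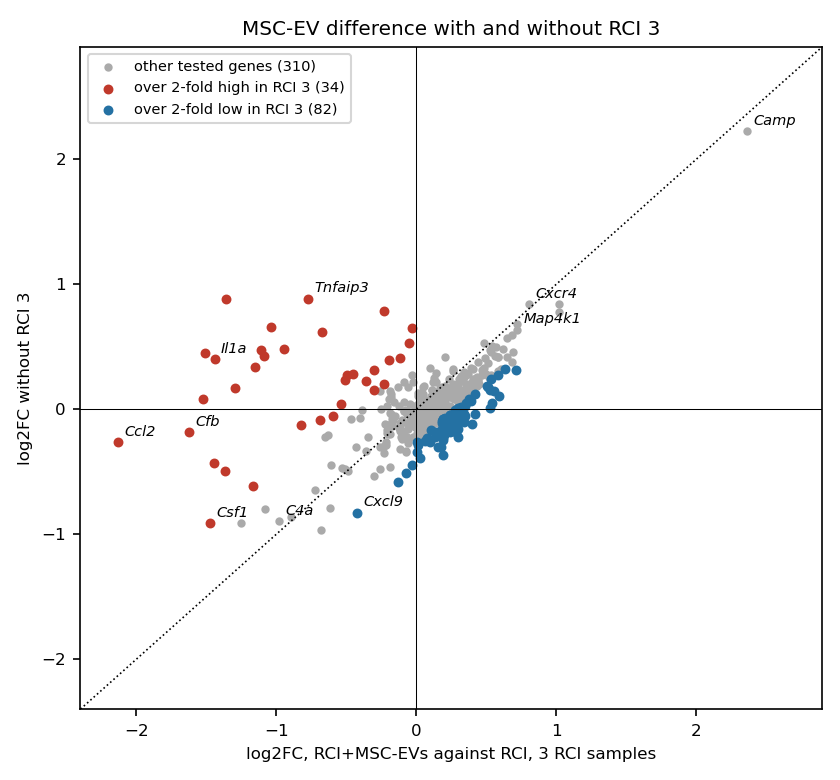
Log2FC of RCI+MSC-EVs against RCI for the 426 tested genes, with all 3 RCI samples on the horizontal axis and without RCI 3 on the vertical axis (the dotted line marks equal values). The 34 genes high in RCI 3 (red) lie left of 0 with RCI 3 and mostly above 0 without it, while *Map4k1*, *Cxcr4* and *C4a* lie near the line.

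Among the lists, the T cell median went from 0.43 to 0.25 without RCI 3, with 17 of 19 members above 0. In RCI 3, 3 T cell members were over 2-fold low, where 82 of all 426 genes were. The complement median went from -0.07 to -0.18. The endothelial and stromal median went from -0.23 to -0.12, with the same 5 lower genes, *Ccl19*, *Cd34*, *Cdh5*, *Cxcl12* and *Cxcl13*, apart (9.39% of all genes were lower and apart). Of the 17 interferon-inducible genes 8 were lower without overlap once RCI 3 was left out, *Cxcl9* by a narrow margin, beside 9.39% of all genes and 0 of the 17 with it. Their median went from 0.01 to -0.22, and 8 of the 17 were over 2-fold low in RCI 3, where 82 of all 426 genes were. *Cxcl9* alone passed an unadjusted edgeR p of 0.05. The NF-kB list of 18 genes, 6 of them high in RCI 3 (34 of all 426 genes were), went from -0.15 to 0.10. For MHC class II the 9 log2FC were all above 0 with RCI 3 (median 0.24), and without it 6 of the 9 were below 0 (median -0.11). *Cd74*, the invariant chain of MHC class II, had 4745, 4577 and 4391 scaled counts in RCI+MSC-EVs, within the spread of 6451, 3131 and 1862 in RCI.

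**Figure D5:**
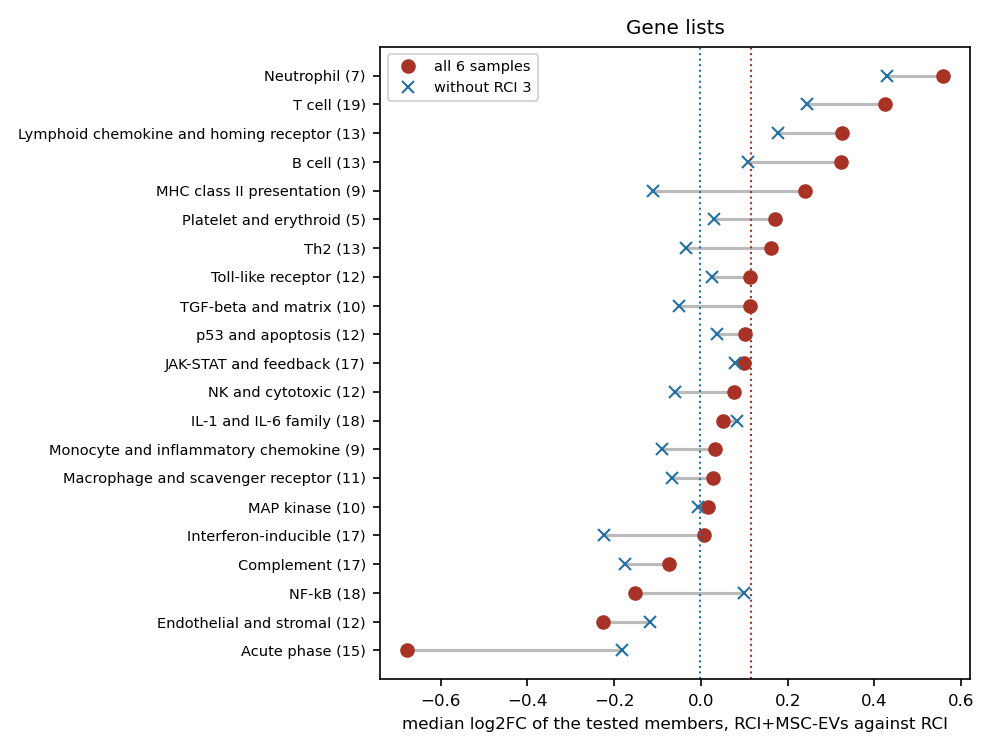
Median log2FC of RCI+MSC-EVs against RCI over the tested members of each gene list (number of members in brackets), for all 6 samples (red) and without RCI 3 (blue), with dotted lines at the medians of all tested genes, 0.12 and -0.00. The acute phase and MHC class II medians are among those that move most, and the T cell median stays above both lines.

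Whether the MSC-EV difference was particular to the combined injury was tested as the difference between the log2FC in RCI and in WBIR. The WBIR side includes a shallow library, WBIR+MSC-EVs 1, with 90127 total counts beside 598872 and 550742 in WBIR+MSC-EVs 2 and 3. In it 71 of the 426 tested genes had under 20 counts, and 79 were over 2-fold from the mean of WBIR+MSC-EVs 2 and 3. The log2FC in WBIR rest in part on this library. edgeR called 0 of 426 genes (0%), with a smallest adjusted p of 0.998, DESeq2 and limma called 0, and edgeR gave 11 genes at an unadjusted p under 0.05 (2.58%), 1 with a higher value in RCI and 10 with a lower one. The higher gene was *Map4k1*, with a log2FC of 0.07 in WBIR and 0.72 in RCI (difference 0.65 ± 0.29, edgeR p 0.0434, adjusted p 0.998). Among the lower ones, *C4a* had 0.27 in WBIR and -0.98 in RCI (difference -1.25 ± 0.42, edgeR p 0.00978, adjusted p 0.998). In *Cxcr4* the log2FC of both injuries were alike in size, 0.80 and 0.81, with a difference of 0.01 and a 95% interval from -0.80 to 0.81. *Socs1* had 0.52 in WBIR and 0.48 in RCI, with an interval of the difference from -0.68 to 0.61. Without RCI 3 the difference passed the unadjusted threshold in 3 genes by edgeR, *C4a*, *Ccr6* and *Ptger4*, all lower in RCI.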

How the data were processed

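The authors hybridized spleen RNA to the nCounter Mouse Immunology Panel, which counts color-coded barcodes without amplification. The deposited values were raw counts per gene, before the nSolver normalization the authors applied later. Control probes were not used here, so no background was subtracted, and no cartridge or run was analysed. Groups were taken from the sample labels. Counts were scaled to the 14 reference genes, genes with a mean under 20 counts were removed, and the rest were fitted with edgeR 4.0.16 (R 4.3.3, robust quasi-likelihood, all 15 samples, 10 residual degrees of freedom, two-sided, Benjamini-Hochberg over 426 genes). The common dispersion was 0.110, a CV of 33.1% between replicates (28.7% without RCI 3). Intervals are unadjusted. DESeq2 1.42.0, limma 3.58.1 (log2 of scaled count + 10), other scalings and filters, and leaving out each of the 6 RCI and RCI+MSC-EVs samples were alternatives. The scripts were tested on simulated data. Deviations of same-numbered samples correlated at 0.26, 0.33 and 0.52, so the numbers were treated as pairs in a blocked alternative, although only number 3 correlated best with its own number. Members, gene lists and tests were chosen with earlier results of these data known. Named genes were those with the smallest p or largest log2FC, genes the study named or whose plasma proteins it assayed, the leading genes of RCI 3 and up to 4 per list, and *Pecam1*, *Icam2*, *Il1r1*, *Icam1* and the genes with promoter matches were added after their values were seen. *Thy1*, *Itga4*, *Ccr6*, *Cd74*, *Cd8a*, *Cd55*, *Ptger4* and the reference genes *Polr2a* and *Alas1* were named outside that rule too. Some genes are not reported here.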

Additional observations from a re-analysis of the deposited data

How the results depend on the processing

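Under all alternatives run, adjusted calls stayed at 0 for RCI+MSC-EVs against RCI, for the same comparison without RCI 3 and for the difference between the injuries. The number of genes at an unadjusted p under 0.05, 14 in the comparison of all 6 samples, was 22 with TMM scaling, 24 with median-of-ratios scaling and 23 with only the compared groups in the fit. Leaving out 1 RCI or RCI+MSC-EVs sample gave 5 to 29, with 29 without RCI 1, 24 without RCI 2, 5 without RCI 3 and 8 without RCI+MSC-EVs 2. Groups without overlap then numbered 62 to 133. With both RCI 3 and RCI+MSC-EVs 3 left out, an alternative added after seeing the data, 2 genes passed and 177 did not overlap. Smaller groups separate more often by sampling alone. The 62 to 133 and the 177 therefore cannot be compared with the number for all 6 samples, or with each other. Without RCI 3 the 5 genes became 11 with TMM, 10 with median-of-ratios, 9 with an unequal-variance test and 24 with only the compared groups. For the difference between the injuries the 11 genes became 7 with 7 reference genes and 3 to 16 with 1 RCI or RCI+MSC-EVs sample left out (3 without RCI 3 or RCI+MSC-EVs 1, 4 without RCI+MSC-EVs 2). With 1 sample of the WBIR groups left out, added after seeing the data, they were 4 to 12 (4 without WBIR+MSC-EVs 1, 5 without WBIR 2 or WBIR 3, 6 without WBIR+MSC-EVs 2). With the replicate number as a block 0 genes were called and 11 passed unadjusted, and the block changed no call. Of 23 single genes under 13 settings, 4 results changed sign. With 1 sample left out, *Cxcl9* ranged from -0.83 to 0.27 (the highest without RCI 1), *Cd36* from -0.53 to 0.041 (without RCI 2), *Tnf* from -1.06 to 0.62 and *Tnfaip3* from -1.42 to 0.89 (both without RCI 3). The cause was not tested.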

Other observations

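All 12 p53 and apoptosis genes had a log2FC above 0, but the median of 0.10 was below that of all genes (0.12), was -0.04 with TMM scaling, and 7 of 12 stayed above 0 without RCI 3. *Atm*, the kinase that senses DNA breaks, was the member whose groups did not overlap (6.57% of all genes were higher and apart). The 12 Toll-like receptor genes had a median of 0.11, the 10 TGF-beta and matrix genes 0.11 and the 10 MAP kinase genes 0.02. For the 18 interleukin-1 and interleukin-6 family genes it was 0.05. The 13 Th2 genes had a median of 0.16, which was 0.01 with TMM scaling and -0.04 without RCI 3. The 9 monocyte and inflammatory chemokine genes had a median of 0.03, and the 5 platelet and erythroid genes 0.17.

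*Adal* and *Nfatc3*, among the higher genes with the smallest p, had no overlap between the groups. *Nfatc3*, a transcription factor of activated T cells, measured 300, 316 and 324 scaled counts in RCI+MSC-EVs and 249, 253 and 174 in RCI (log2FC 0.48 ± 0.25, edgeR p 0.0768, adjusted p 0.989). *Adal* measured 49.6, 51.7 and 46.8 against 43.9, 26.4 and 32.03 (log2FC 0.53 ± 0.27, edgeR p 0.0721, adjusted p 0.989).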
